A study of Rattus norvegicus with 9 samples.

Results

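The genes described here are 9 interferon response genes of rat gastrocnemius muscle: the transcription factors Irf7, Irf1 and Stat2, the ubiquitin-like protein Isg15 and its protease Usp18, the GTPases Mx1 and Mx2, and the IFIT proteins Ifit2 and Ifit3. They were given as a list of symbols and were found by matching the NCBI gene ID of each row to its RefSeq symbol. All 9 matched, out of 13752 gene IDs in the files, all 9 were listed in every library, and all 9 passed the filter on low counts that left 10129 genes to test.

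Messenger RNA of the gastrocnemius, which lies in the calf and is innervated through the sciatic nerve, was sequenced from male rats aged 8 weeks in 3 groups of 3 libraries. SHAM rats had a sham operation and no treatment. DN rats had a sciatic nerve injury and no treatment, and DN-SM rats had the same injury followed by electrical stimulation every day for 4 weeks through surface electrodes over the muscle (25 V, 1 mA, 2 Hz, pulse width 300 ms). Rats of all 3 groups were anaesthetised with pentobarbital, shaved and fitted with electrodes, without current for 10 minutes in SHAM and DN. The labels do not give the strain, the kind of nerve injury or the day on which SHAM and DN muscle was taken, nor do they tie each library to its own rat, so the p-values measure the spread between these samples.

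Interferons are cytokines that cells release when they sense viral or misplaced nucleic acid. Type I interferons act through the receptor chains Ifnar1 and Ifnar2 and the kinases Jak1 and Tyk2, which activate Stat2. A complex that holds Stat2 and Irf9 binds the interferon-stimulated response element (ISRE) in the promoters of antiviral genes. Interferon gamma acts through Ifngr1 and Ifngr2, and its target genes carry the gamma-activated site (GAS). In skeletal muscle the pathway is best known from human inflammatory myopathies, in which many of these genes are raised.

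The promoters of some of the genes hold matches to these elements, and their sequences are given to show where the matches lie. RefSeq promoter entries (build GRCr8) matched 5 of the 9 genes, namely Irf7, Irf1, Stat2, Mx1 and Ifit3. The 250 bases before each gene's start were searched on both strands for the ISRE (GAAA and GAAA with any NN between them) and the GAS (TTCNNNGAA, the same on both strands). An ISRE match was found in Irf7 and Ifit3, and a GAS match in Irf1. Among all 33469 promoters, 3.41% held the ISRE letters and 7.67% the GAS letters. Of the other interferon pathway genes listed in the files, 74 had a promoter entry, of which 31 held the ISRE and 14 the GAS. Below are the last 150 bases before the start of these 3 genes and of Bst2, which passed the test in DN against SHAM, each 5′ to 3′ on the gene's own strand with the matches in capitals. They lie at chr1:205800024-205800173 (minus strand) for Irf7, chr10:38417785-38417934 (plus) for Irf1, chr1:241527176-241527325 (plus) for Ifit3 and chr16:18254968-18255117 (minus) for Bst2.
Irf7: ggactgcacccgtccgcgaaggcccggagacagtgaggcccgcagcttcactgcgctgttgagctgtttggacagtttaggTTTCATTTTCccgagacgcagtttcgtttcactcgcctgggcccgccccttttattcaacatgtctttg
Irf1: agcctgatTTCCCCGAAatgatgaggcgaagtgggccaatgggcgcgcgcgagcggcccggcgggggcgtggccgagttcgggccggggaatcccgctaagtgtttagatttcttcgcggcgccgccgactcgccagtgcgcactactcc
Ifit3: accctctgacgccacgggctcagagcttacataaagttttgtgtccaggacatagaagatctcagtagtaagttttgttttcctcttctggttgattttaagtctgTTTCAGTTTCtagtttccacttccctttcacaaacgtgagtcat
Bst2: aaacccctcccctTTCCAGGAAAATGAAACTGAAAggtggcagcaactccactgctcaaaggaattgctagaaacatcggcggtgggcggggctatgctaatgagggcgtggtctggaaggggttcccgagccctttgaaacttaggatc
In Bst2 a pair of overlapping ISRE matches also overlaps the GAS match, so its capitals form 1 run. The ISRE lay 69 to 60 bases before the start in Irf7 and 44 to 35 bases before it in Ifit3, and the GAS of Irf1 lay 142 to 134 bases before it. B2m and Ifi30 also passed in DN against SHAM and are not shown. B2m held an ISRE match 150 to 141 bases before its start, and Ifi30 held no match. A match describes the letters only.

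Depth was similar in all libraries, with totals of 7926445 to 8893843 expected counts, the estimated counts that the authors deposited. The muscle markers were abundant in every library, with 10 of 11 listed and sums of 138453 to 162109 FPKM (fragments scaled to transcript length and library size). The leading principal component of the log2 CPM values (CPM being counts relative to library size) held 30.8% of the variance. On it SHAM replicate 2 lay at -39.1 and SHAM replicate 3 at 9.7, while DN lay at 22.2 to 24.5 and DN-SM at -11.5 to -8.5. SHAM was therefore the least uniform group there, and each result was also computed without each library. The genes of this family were low in the muscle: each rested on 9 to 450 expected counts in a library, and counting error is largest for Isg15, Usp18, Mx1, Ifit2 and Ifit3.

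On the FPKM scale, which allows for transcript length, Irf7 had the highest level over all 9 libraries, with a mean of 14.4 FPKM. Irf1 (6.84), Stat2 (5.78) and Isg15 (4.18) followed, then Mx2 (3.11) and Usp18 (2.10). Mx1 (1.09), Ifit3 (0.992) and Ifit2 (0.947) were lowest. Among these last 3 the DN libraries of all overlapped, as did the DN-SM libraries, whereas in SHAM every Ifit2 library lay above every Mx1 library. The highest and lowest libraries for Irf7 differed 4.27-fold.

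Setting DN beside SHAM asks how nerve injury bears on these genes. Most of them had higher levels in DN, and none passed the test. The mean was highest in DN for 8 of 9 genes, the exception being Ifit2, and the share of all genes with that order was not computed. The DN and SHAM libraries did not overlap in FPKM for 7 of 9, all higher in DN, against 15.9% of all genes tested. After scaling counts by TMM (trimmed mean of M-values) factors, 5 of 9 did not overlap, against 14.1% of all genes, since Usp18 and Mx1 then overlapped. By edgeR's quasi-likelihood test with Benjamini-Hochberg adjustment, 0 of 9 passed an adjusted p of 0.05, where 4.26% of all genes did. At an unadjusted p under 0.05, 6 of 9 were higher, against 10.9% of all genes. The count was also 0 by DESeq2, in which Isg15 and Ifit3 received no adjusted p, by limma on log2 FPKM and by voom with sample weights. At an unadjusted p under 0.05 these methods had 6, 6 and 5 of the 9. Over all genes, in either direction, they had 2092 of 13745 (DESeq2), 1926 of 9145 (limma on log2(FPKM + 1)) and 2305 of 10129 (voom). The median log2 fold change of the 9 was 0.77, beside -0.01 over all genes tested.

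**Figure D1:**
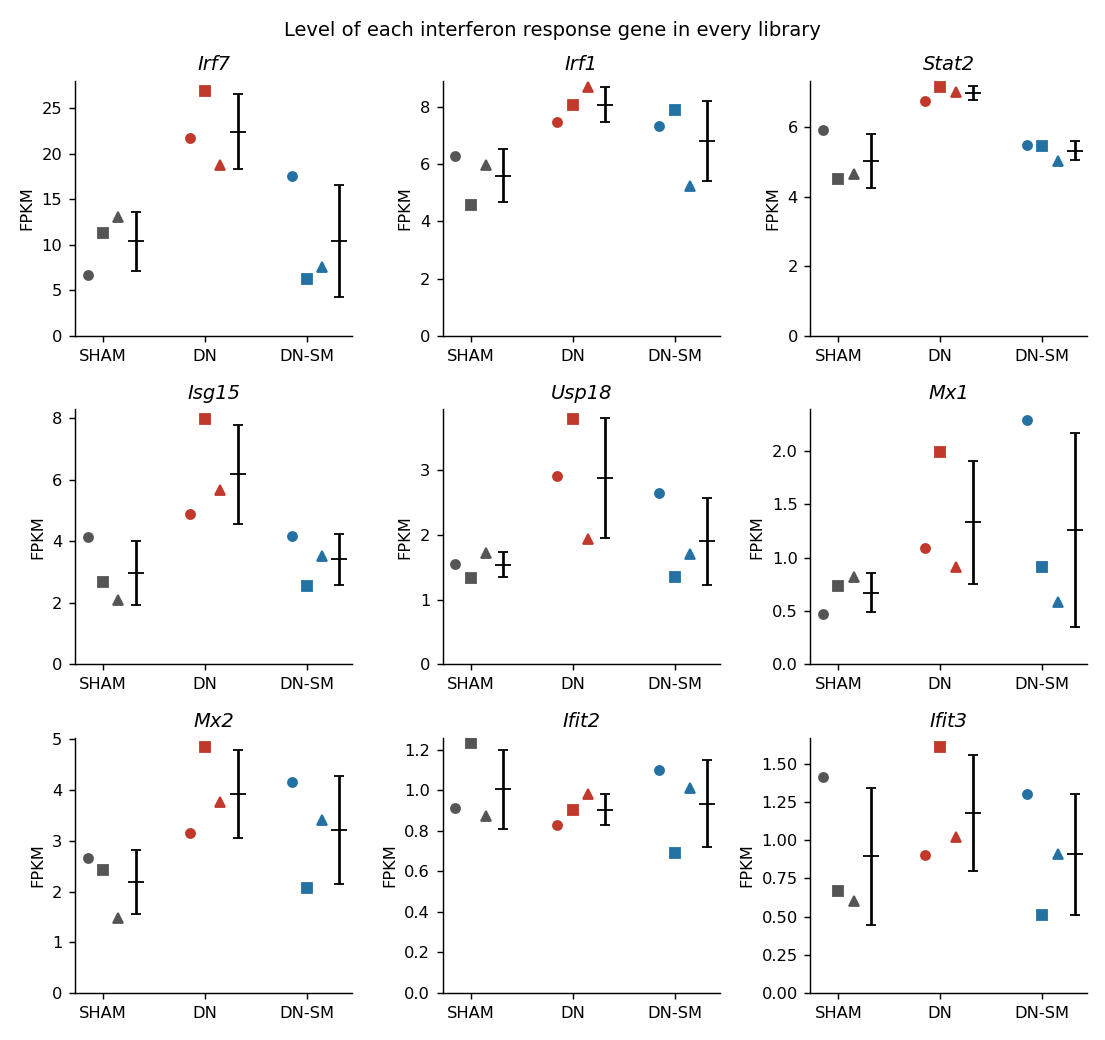
FPKM (y axis) of each gene in every library, by group (x axis); circles, squares and triangles are replicates 1, 2 and 3, and the black bar is the mean ± SD (n = 3). DN lies above SHAM without overlap for 7 genes, and DN-SM replicate 1 is the highest DN-SM library for 8 of the 9.

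Among the transcription factors, Irf7 is induced by interferon and in turn drives the genes of type I interferon. Its levels were 6.71, 11.28 and 13.08 FPKM in SHAM, while DN had 21.68, 26.83 and 18.76 and DN-SM had 17.49, 6.28 and 7.57 (replicates 1 to 3). All DN libraries lay above all SHAM and all DN-SM libraries, but DN-SM replicate 1 lay near the lowest DN library while the other two lay below SHAM replicates 2 and 3. The means were 10.4 ± 3.28 FPKM in SHAM, while DN had 22.4 ± 4.09 and DN-SM had 10.5 ± 6.13 (SD, n = 3). DN against SHAM had a log2 fold change of 1.02 (SE 0.419, 95% interval 0.07 to 1.97), with an edgeR adjusted p of 0.198. Its lowest adjusted p among the alternatives was 0.055, by DESeq2.

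Stat2 is part of the transcription factor complex of the type I response and had the smallest SE of the 9 genes in the fit. It measured 5.93, 4.51 and 4.65 FPKM in SHAM, while DN had 6.75, 7.15 and 7.02 and DN-SM had 5.5, 5.45 and 5.02. Every DN library was above every SHAM and DN-SM library, and the DN-SM libraries lay inside the SHAM range. The log2 fold change of DN against SHAM was 0.41 (SE 0.128; 95% interval 0.13 to 0.69; edgeR adjusted p = 0.0915), the smallest adjusted p among the 9 genes.

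Irf1 is a transcription factor that responds chiefly to interferon gamma and whose targets include the genes of antigen presentation. Its levels were 6.28, 4.56 and 5.97 FPKM in SHAM, while DN had 7.47, 8.08 and 8.70 and DN-SM had 7.34, 7.88 and 5.24. DN did not overlap SHAM, and the DN-SM libraries covered the range from SHAM to DN. The log2 fold change was 0.46 in DN against SHAM (SE 0.176, edgeR adjusted p = 0.153).

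Isg15 is a ubiquitin-like protein that is joined to other proteins during an interferon response, and Usp18 removes it and also blocks the type I receptor. Isg15 stood at 4.13, 2.68 and 2.10 FPKM in SHAM, while DN had 4.87, 7.97 and 5.67 and DN-SM had 4.17, 2.53 and 3.53, from 12 to 43 expected counts. DN lay above both other groups without overlap, and its lowest library was close to SHAM replicate 1. The log2 fold change of DN against SHAM was 0.99 (SE 0.316; 95% interval 0.31 to 1.68; edgeR adjusted p = 0.0934). Usp18 stood at 1.55, 1.34 and 1.72 FPKM in SHAM, while DN had 2.90, 3.79 and 1.94 and DN-SM had 2.64, 1.35 and 1.70. DN replicate 3 was close to the highest SHAM library, and DN-SM replicates 2 and 3 lay inside the SHAM range. Its log2 fold change was 0.84 (SE 0.334, edgeR adjusted p = 0.166).

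The enzymes that load Isg15 onto its targets had values of the same direction. Uba7, its activating enzyme, was at 1.40 ± 0.352 FPKM in SHAM, while DN had 2.84 ± 0.445 and DN-SM had 1.57 ± 0.608 (SD, n = 3). Ube2l6, its conjugating enzyme, was at 2.22 ± 0.442, 3.95 ± 0.119 and 2.63 ± 0.37 FPKM. DN did not overlap SHAM for either enzyme, and neither passed by edgeR in DN against SHAM (log2 fold changes of 0.96 and 0.76, adjusted p = 0.0838 and 0.0733). DESeq2 called Uba7, and limma on log2(FPKM + 1) called Ube2l6. Trim25, which can act as a ligase for Isg15, was at -0.01 on the same scale.

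Mx1 and Mx2 are GTPases that block virus replication. Their expected counts were fractions that added up to a whole number in each library, so the authors' counting divided shared reads between the pair and their separate levels are uncertain. Mx1 was at 0.47, 0.73 and 0.82 FPKM in SHAM, while DN had 1.09, 1.99 and 0.91 and DN-SM had 2.29, 0.91 and 0.58. Mx2 was at 2.66, 2.43 and 1.48 FPKM in SHAM, while DN had 3.15, 4.86 and 3.77 and DN-SM had 4.17, 2.07 and 3.41. DN replicate 2 and DN-SM replicate 1 were the highest of their groups for both genes. The summed counts of the pair, which do not depend on how reads were divided, were 68, 77 and 59 in SHAM, while DN had 103, 162 and 110 and DN-SM had 158, 73 and 87, of which Mx1 took 17.4% to 40.8%. In DN against SHAM the log2 fold change was 0.87 for Mx1 (SE 0.511, edgeR adjusted p = 0.343), 0.77 for Mx2 (SE 0.286, adjusted p = 0.141) and 0.80 for the sum (SE 0.292, adjusted p = 0.137). The sum was tested after the values had been seen.

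The IFIT proteins bind viral RNA and hold back its translation. Ifit2 measured 0.91, 1.23 and 0.87 FPKM in SHAM, while DN had 0.83, 0.90 and 0.98 and DN-SM had 1.10, 0.69 and 1.01. Its expected counts (20.73 to 37.19) were fractions in every library, so reads may have been divided with another gene and its level is uncertain. Its groups overlapped throughout, and its log2 fold change of DN against SHAM was -0.24 (SE 0.274; 95% interval -0.83 to 0.36; edgeR adjusted p = 0.656). Ifit3 measured 1.41, 0.67 and 0.60 FPKM in SHAM, while DN had 0.90, 1.61 and 1.02 and DN-SM had 1.30, 0.51 and 0.91, from only 9 to 28 expected counts. The groups overlapped, and SHAM replicate 1, DN replicate 2 and DN-SM replicate 1 were the highest of each. The log2 fold change was 0.36 (95% interval -0.53 to 1.24; edgeR adjusted p = 0.652).

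Ifit1, the remaining IFIT gene in the files, is not among the 9 and showed another pattern. It had 3, 57 and 45 expected counts in SHAM, while DN had 80, 1 and 49 and DN-SM had 4, 1 and 25. Each group thus held at least 1 library with 1 to 4 counts and 1 with 25 or more, and the libraries with low Ifit1 included DN replicate 2 and DN-SM replicate 1, in which most of the 9 genes were highest in their group. The log2 fold change of DN against SHAM was 0.21 (edgeR adjusted p = 0.942).

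**Figure D2:**
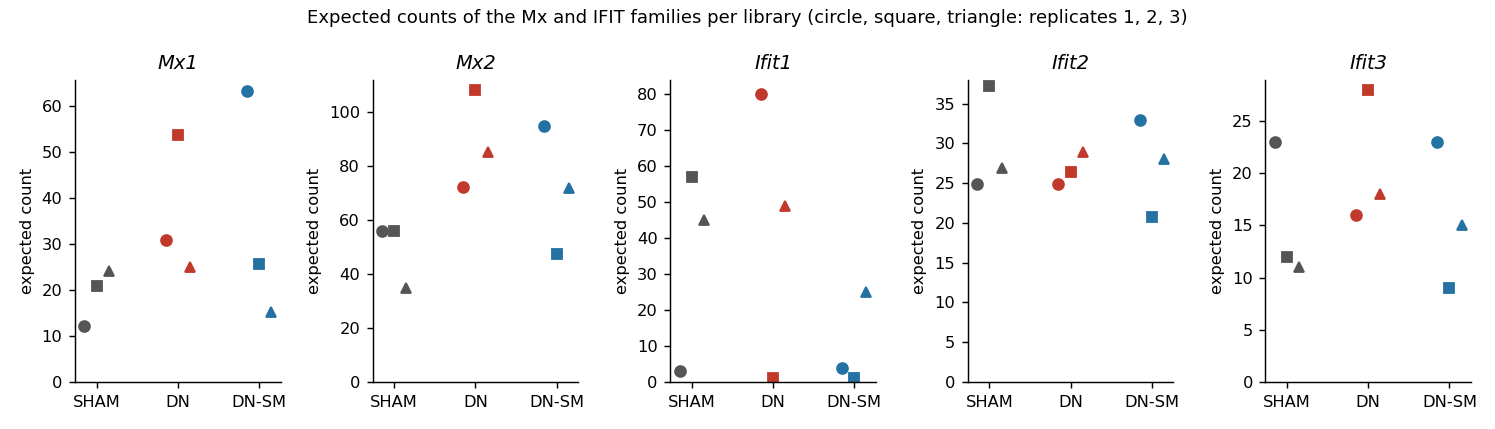
Expected counts (y axis) of the Mx and IFIT genes in every library, by group (x axis), with circles, squares and triangles for replicates 1, 2 and 3. Mx1 and Mx2 share their highest library in DN and in DN-SM, while Ifit1 splits each group into libraries with 1 to 4 counts and libraries with 25 or more.

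Setting DN-SM beside DN asks how stimulation bears on them in injured muscle. Irf7, Stat2 and Isg15 had lower FPKM in every DN-SM library than in every DN library, 3 of 9 genes where 21.3% of all genes were lower without overlap. With TMM-scaled counts 2 of 9 did not overlap, against 13.3% of all genes, since Irf7 then overlapped. None of the 9 passed edgeR's test, as did 0.00987% of all genes, and DESeq2, limma and voom also called 0. DESeq2 gave no adjusted p there for Isg15, Usp18, Mx1, Ifit2 and Ifit3. At an unadjusted p under 0.05 edgeR had 3 of 9 lower, against 6.50% of all genes lower and 17.6% in either direction. By the same threshold DESeq2 had 1 of 9, and limma and voom 3 each. Over all genes, in either direction, these methods had 1602 of 13745 (DESeq2), 1772 of 9145 (limma on log2(FPKM + 1)) and 2634 of 10129 (voom). Irf7 had a log2 fold change of -1.01 (SE 0.419; 95% interval -1.96 to -0.05; edgeR adjusted p = 0.261), Isg15 of -0.75 (SE 0.311, adjusted p = 0.24) and Stat2 of -0.29 (SE 0.128, adjusted p = 0.257). Usp18 was at -0.51 (adjusted p = 0.421), Ifit3 at -0.28 (0.745) and Mx2 at -0.19 (0.751). Irf1 was at -0.15 (0.686), Mx1 at 0.02 (0.987) and Ifit2 at 0.16 (0.791). The median of the 9 was -0.28, beside -0.01 over all genes tested. This comparison shares the DN libraries with the one before.

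In DN-SM against SHAM, the comparison of stimulated injured muscle with uninjured muscle, the groups overlapped for all 9 genes in FPKM and in TMM-scaled counts. Of all genes 7.49% were higher and 9.34% lower without overlap in FPKM, and 9.36% and 8.98% in scaled counts. 0 of 9 passed by edgeR, where 0.839% of all genes did. The count was 0 also at an unadjusted p under 0.05, which 12.8% of all genes reached (6.54% higher, 6.23% lower), and by DESeq2, limma and voom, adjusted or not, with no adjusted p for Ifit3 by DESeq2. The log2 fold changes ran from -0.08 for Ifit2 (95% interval -0.67 to 0.51) to 0.89 for Mx1 (-0.24 to 2.02), with a median of 0.24 beside 0.02 over all genes. Irf7 was at 0.01 (-0.96 to 0.98). The change was above 0 for 8 of 9 genes, against 52.5% of all genes. On the FPKM scale the DN-SM mean lay between the SHAM and DN means for all 9 genes, an order whose share over all genes was not computed. For Irf7 (10.45 against 10.36 FPKM in SHAM) and Ifit3 (0.9067 against 0.8933) it lay close to the SHAM mean. In the edgeR fit Mx1 was no lower in DN-SM than in DN. Without DN-SM replicate 1 the log2 fold change of Mx1 in DN-SM against SHAM was 0.15. The summed counts of Mx1 and Mx2 had a log2 fold change of 0.68 (SE 0.294, unadjusted p = 0.0406, edgeR adjusted p = 0.361).

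**Figure D3:**
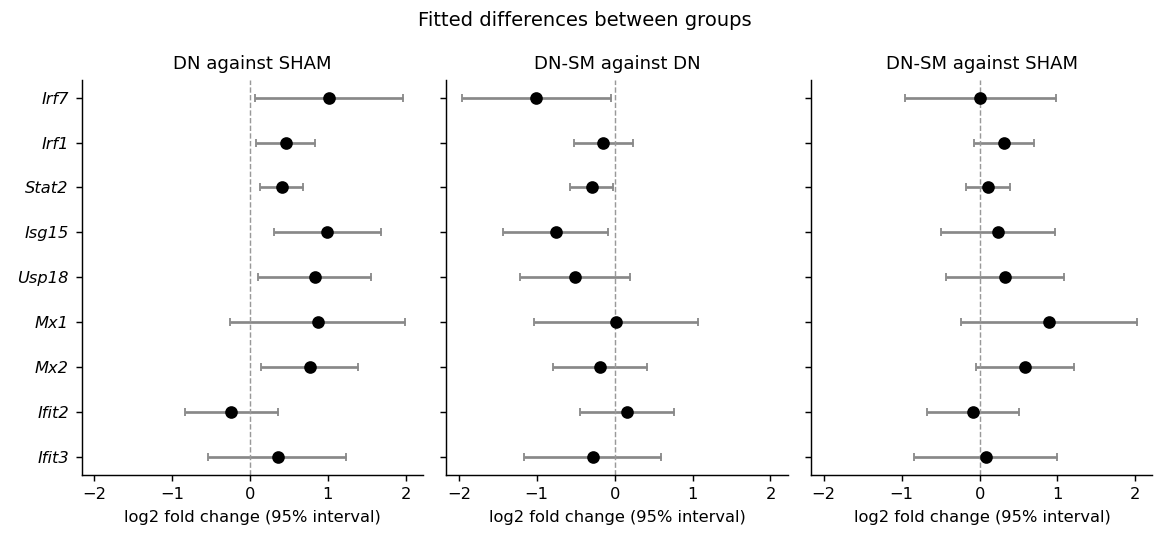
Log2 fold changes (x axis) of the 9 genes (y axis) in the 3 comparisons from the edgeR fit, with bars for the 95% interval without adjustment for multiple tests. In DN against SHAM the interval lies above 0 for 6 genes, in DN-SM against DN it lies below 0 for Irf7, Stat2 and Isg15, and in DN-SM against SHAM it includes 0 for all 9.

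Single libraries weighed heavily within DN-SM. Replicate 1 was the highest DN-SM library for 8 of the 9 genes, the exception being Irf1. It lay above the whole SHAM range for 6 genes and at or above the lowest DN library for 5, while replicates 2 and 3 both stayed at or below the highest SHAM library for 6. The summed FPKM of the 9 genes was 46.0, 27.7 and 29.0 in DN-SM replicates 1 to 3, beside 29.4 to 31.3 in SHAM and 48.8 to 63.2 in DN. Without Irf7, which made up 22.3% to 43.7% of the sum, it was 28.5, 21.4 and 21.4 in DN-SM, 18.2 to 23.3 in SHAM and 28 to 36.4 in DN. Replicate 1 supplied 60.6% of the DN-SM total of Mx1 and 55.8% of that of Irf7, so leaving it out lowered those means 1.69-fold and 1.51-fold. Without it, the log2 fold change of DN-SM against DN was -0.72 for Mx1 (edgeR adjusted p = 0.469) and -1.61 for Irf7 (adjusted p = 0.272).

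The DN means depended less on 1 library. Replicate 2 was highest for 7 of the 9 genes, and without it the DN mean fell by at most 1.33-fold, for Mx1. In SHAM the largest such move was 1.41-fold, for Ifit3 without replicate 1. With each of the 9 libraries left out in turn, none of the 9 genes passed in any comparison. The DN against SHAM log2 fold change ranged from 0.74 to 1.24 (Irf7), 0.76 to 1.21 (Isg15) and 0.37 to 0.46 (Stat2). Ranges were 0.36 to 0.53 for Irf1, 0.57 to 0.90 for Mx2 and 0.58 to 1.08 for Usp18. They were 0.46 to 1.12 for Mx1, 0.06 to 0.74 for Ifit3 and -0.37 to -0.02 for Ifit2. The count at an unadjusted p under 0.05 by edgeR, 6 of 9 with all libraries, ranged from 2 (without DN replicate 2) to 7 (without DN-SM replicate 1). It was 3 without SHAM replicate 2. Over all genes, in either direction, 2256 of 10129 had such a p with all libraries and 1835 of 10274 without DN replicate 2. Without DN-SM replicate 1 it was 2083 of 10288, and without SHAM replicate 2 it was 1608 of 10302. The 2 of 9 without DN replicate 2 thus lay near the share of all genes.

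Of the wider pathway, 115 further genes were listed by role, of which 94 occurred in the files and 81 were tested. In DN against SHAM 3 rose, 3.70% of those tested where 4.26% of all genes were called and 2.57% rose, and none fell. They were Bst2, also known as tetherin, which holds budding virus at the cell surface, B2m, the light chain of MHC class I, and Ifi30, a thiol reductase of antigen processing. Bst2 was at 39.09, 37.59 and 43.79 FPKM in SHAM, while DN had 64.33, 73.69 and 80.84 and DN-SM had 62.34, 42.07 and 46.92. DN was above all other libraries, and DN-SM replicate 1 again stood nearest to it (log2 fold change 0.78 in DN against SHAM, SE 0.158, edgeR adjusted p = 0.0227). B2m was at 151.04, 85.30 and 91.89 FPKM in SHAM, while DN had 167.98, 196.62 and 206.62 and DN-SM had 156.81, 145.14 and 199.27 (0.75, adjusted p = 0.0285). Ifi30 was at 11.2 ± 3.07, 19.0 ± 1.33 and 13.9 ± 0.697 FPKM in SHAM, DN and DN-SM (0.69, adjusted p = 0.0417).

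The count of 3 depended on single libraries. It was 1 without SHAM replicate 1, 7 without SHAM replicate 3, and 0 without SHAM replicate 2 or without any 1 of the DN libraries, with adjusted p values of Bst2 from 0.0518 to 0.0913 in those 4 fits. When DN and SHAM were fitted by themselves, B2m (adjusted p = 0.0553) and Ifi30 (0.0965) were no longer called, whereas Bst2 was (0.0284). DESeq2 called 7: the 3, with Ifi27l2b, Lgals3bp, Ifngr1 and Uba7. Limma on log2(FPKM + 1) also called 3, but these were Bst2, Ifi27l2b and Ube2l6, with adjusted p = 0.0562 for B2m and 0.0521 for Ifi30. At an unadjusted p under 0.05, 26 of 81 were higher (32.1%, against 10.9% of all genes) and 3 were lower (3.70%, against 11.4%). The median log2 fold change was 0.26, beside -0.01 over all genes.

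By role, no interferon ligand occurred in the files: none of the 7 written, among them Ifnb1 and Ifng, was listed in any library. The counts by role are from edgeR in DN against SHAM. Of 5 receptor chains 0 were called. Ifngr1, the ligand-binding chain of the interferon gamma receptor, stood at 17.9 ± 2.42 FPKM in SHAM beside 26.9 ± 4.78 in DN (log2 fold change 0.52, edgeR adjusted p = 0.0687; called by DESeq2), and Ifngr2, its partner, at 8.59 ± 1.49 and 12.0 ± 0.466 (0.43, adjusted p = 0.0922). Of 5 kinases 0 were called in that comparison. Jak2, which acts with Ifngr2, was lower in every DN library than in every SHAM library, as were 6.91% of all genes, at 0.743 ± 0.167 against 1.36 ± 0.397 FPKM (-0.95, adjusted p = 0.0765), and it passed without SHAM replicate 3. Jak1 was at -0.22 (adjusted p = 0.272). Of the 6 other transcription factors 0 were called; Irf2, which opposes Irf1, was at -0.68 (0.206) and Irf3, which starts the response to viral nucleic acid, at 0.21 (0.407). Irf9, which binds DNA in the complex with Stat2, was at 0.25.

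Among 6 tested sensors 0 were called. Dhx58, a cytoplasmic sensor of viral RNA, was at 0.737 ± 0.179 FPKM in SHAM, while DN had 1.47 ± 0.265 and DN-SM had 0.687 ± 0.236 (log2 fold change 0.92 in DN against SHAM, edgeR adjusted p = 0.116), and Tlr3, a receptor for double-stranded RNA, had a log2 fold change of -0.66 (0.224). In the IFITM and IFI27 family 1 of 8 was called by edgeR, Bst2. Ifi27l2b, of the IFI27 family, narrowly missed the threshold there: 8.01, 12.95 and 11.63 FPKM in SHAM, while DN had 27.18, 52.56 and 37.23 and DN-SM had 22.14, 6.0 and 9.76 (1.74, adjusted p = 0.0503). It passed when DN and SHAM were fitted by themselves (0.0263), by DESeq2, by voom, by limma with the filter on low values, and without DN-SM replicate 1 or 2. As for Irf7, DN-SM replicate 1 was its highest DN-SM library. Of 11 OAS and other RNA-acting effectors 0 were called. Oasl, of the 2′-5′ oligoadenylate synthetase family, was at 1.17 ± 0.355, 2.86 ± 0.972 and 1.33 ± 0.877 FPKM (1.22, adjusted p = 0.111), and Oas1b, whose reads may be shared with the other Oas1 copies, at 0.89 (0.114).

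Among 5 guanylate-binding and immunity-related GTPases, 8 PARP and TRIM effectors, 3 chemokines and 3 feedback inhibitors, 0 were called by edgeR. The GTPases had a median log2 fold change of 0.62, with Gbp5, which acts in inflammasome responses, at 0.76 (edgeR adjusted p = 0.111) and Igtp, which attacks the vacuoles of parasites, at 0.72 (0.142). Lgals3bp, listed with the PARP and TRIM effectors, a secreted glycoprotein that binds galectin-3, stood at 6.14 ± 2.25 FPKM in SHAM beside 14.8 ± 3.99 in DN (1.21, adjusted p = 0.0676; called by DESeq2), and Parp14, an ADP-ribosyltransferase, at 0.75 (0.143). Cxcl9, a chemokine induced by interferon gamma, was at 0.56 (0.521) and Ccl2, which draws monocytes, at -0.28 (0.721). Nlrx1, a mitochondrial inhibitor of the antiviral response, was at 0.27 (0.223) and Pias1, a SUMO ligase that restrains interferon signalling, at -0.45 (0.281). In antigen presentation 2 of 17 were called, B2m and Ifi30, with a median of 0.26 over the 17; class I and class II genes of the RT1 complex share sequence, so their counts are uncertain.

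**Figure D4:**
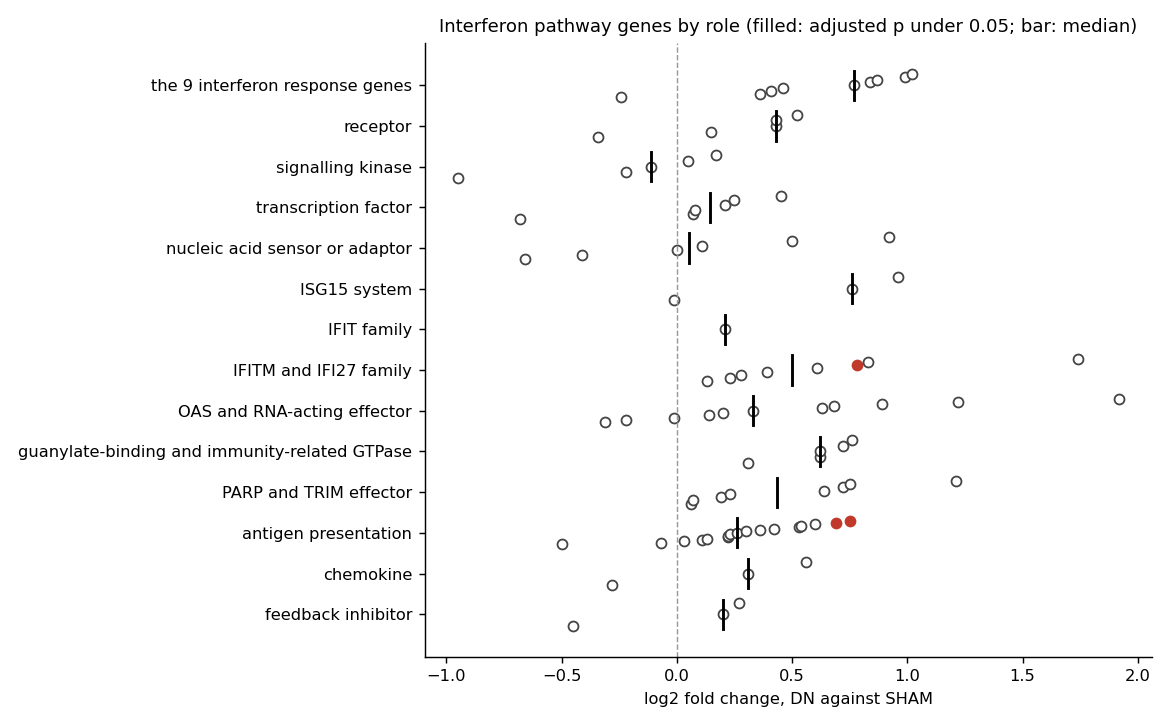
Log2 fold changes of DN against SHAM (x axis) for the 9 genes and for the wider interferon pathway by role (y axis), each point 1 gene, filled where the edgeR adjusted p is under 0.05, with a bar at each median. The 3 filled points are Bst2, B2m and Ifi30, and the kinases are the only role with a median below 0.

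Neither DN-SM against DN nor DN-SM against SHAM called a gene of the wider pathway by edgeR (0 of 81 each). In DN-SM against DN, 11 of 81 were lower and 4 higher at an unadjusted p under 0.05 (against 6.50% and 11.1% of all genes), with a median log2 fold change of -0.21. DESeq2 called 1, Ifi27l2b, and voom 2, Ifi27l2b and Ifi27, all lower. In edgeR Ifi27l2b was at -1.52 (adjusted p = 0.161). In DN-SM against SHAM 12 had an unadjusted p under 0.05 (14.8%, against 12.8% of all genes), 11 of them higher (13.6%, against 6.54%) and 1 lower (1.23%, against 6.23%). DESeq2 called 1, B2m, which was also called by edgeR without SHAM replicate 1.

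Markers of other cell types moved beside these genes in some cases. Of the 10 endothelial markers, all tested, 5 rose in DN against SHAM by edgeR, where 2.57% of all genes tested rose. The same share stands beside the counts of the other marker sets below. Their summed level was 141 to 167 FPKM in SHAM, 213 to 280 in DN and 190 to 212 in DN-SM, with none at 0. In DN their highest library was replicate 3 (280 FPKM), and that of the 9 genes was replicate 2. In DN-SM the endothelial markers (212 FPKM) and the 9 genes were both highest in replicate 1. The 7 Schwann cell markers, of which 2 rose, summed to 60.2 to 69.0, 132 to 308 and 77.9 to 172 FPKM. DN replicate 2 was the highest library there, as for the interferon genes. In DN-SM the Schwann cell markers were highest in replicate 3 (172 FPKM, beside 81.2 in replicate 1) and the 9 genes in replicate 1. The 5 adipocyte markers summed to 73.2 to 86.6, 103 to 145 and 95.7 to 132 FPKM, with Lep at 0 in at least 1 library, and 1 rose, Cidea (2.05, edgeR adjusted p = 0.0361). Of the 6 fibroblast markers, which summed to 264 to 643, 391 to 571 and 271 to 388 FPKM, 1 rose, Thy1 (0.94, edgeR adjusted p = 0.0499). The log2 fold changes of the other fibroblast markers ran from -0.37 to 0.20. The 11 macrophage markers, of which 0 were called, summed to 74.6 to 134, 84.2 to 139 and 82.5 to 119 FPKM. The 11 T and NK cell markers summed to 4.56 to 10.1, 7.19 to 8.04 and 4.67 to 7.28 FPKM, with 7 of them at 0 in at least 1 library. Ptprc, the pan-leukocyte marker CD45, was at 0.12 to 0.29 FPKM in all 9 libraries. The part of these cells in the levels of the 9 genes was not tested, and in bulk muscle a change in the number of cells and a change in RNA per cell cannot be told apart.

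**Figure D5:**
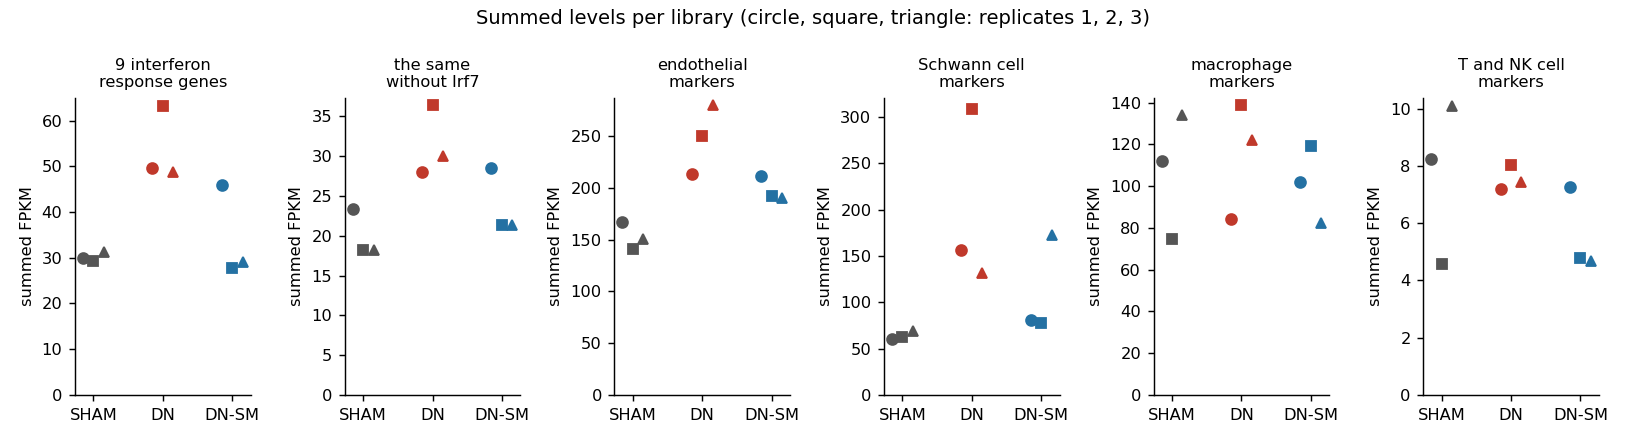
Summed FPKM (y axis) in every library by group (x axis) for the 9 genes, for the 8 without Irf7, and for 4 sets of cell type markers; circles, squares and triangles are replicates 1, 2 and 3. DN-SM replicate 1 is the highest DN-SM library and lies just under DN for the 9 genes (46.0 against 48.8 to 63.2 FPKM) and for the endothelial markers (212 against 213 to 280 FPKM). Within DN the endothelial markers are highest in replicate 3 and the 9 genes in replicate 2. Within DN-SM the Schwann cell markers are highest in replicate 3.

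The 6 genes outside the list whose pattern over the 9 libraries was most like that of the 9 genes were RT1-T24-3, an MHC class I gene (Pearson's r = 0.957 with the mean z-score of their log2 FPKM), Chst15, a sulfotransferase of chondroitin sulfate (0.955), Lgals9, the lectin galectin-9 (0.949), Ly6e, a surface protein induced by interferon (0.942), Vtn, the adhesive plasma protein vitronectin (0.942), and Kdm4a, a histone demethylase (0.939). They were chosen for this likeness, so it is a description without a test. RT1-T24-3 was at 4.13, 3.82 and 4.37 FPKM in SHAM, while DN had 13.07, 18.18 and 14.61 and DN-SM had 14.69, 3.77 and 6.22. DN-SM replicate 1 lay inside the DN range, and the other two DN-SM libraries lay below it. Ly6e was at 52.55, 37.33 and 46.39 FPKM in SHAM, while DN had 65.82, 96.27 and 74.56 and DN-SM had 71.45, 49.36 and 48.66.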

How the data were processed

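The authors deposited for each library, per the file headers, expected counts and FPKM values of genes; genes at 0 are not listed and were set to 0 here. Per the submitters' processing notes RSEM, HISAT2 and GATK were used with rat build rn6; versions and settings are not given in the sources used here. Of 13752 gene IDs, 13649 matched a RefSeq symbol by gene ID and 7 by transcript. Expected counts were rounded, filtered (filterByExpr, minimum count 10, minimum total 15), scaled by TMM and tested in 1 fit of 9 libraries and 3 groups with edgeR 4.0.16 in R 4.3.3 (quasi-likelihood F test, robust, two-sided; Benjamini-Hochberg over 10129 genes; threshold 0.05). The SE is the log2 fold change divided by the square root of F. The scripts were tested on simulated data. Alternatives used DESeq2 1.42.0 and limma 3.58.1 (on log2 FPKM plus 1 or 0.1). No replicate pair agreed within sampling noise (chi-square per degree of freedom 7.73 to 72.3).

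The 9 genes and all lists were chosen with earlier results of these data known. Genes were named by a rule: the 9, every wider pathway gene called, the 2 with the smallest p in each role, and the 6 most alike over the libraries on log2(FPKM + 0.1). Genes named beyond it were chosen after their values were seen: Trim25, Irf9, Ifi27, Ptprc, Cidea, Thy1 and Lep.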

Additional observations from a re-analysis of the deposited data

How the results depend on the processing

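None of the 9 genes passed in any comparison under any of the 20 alternatives (RLE factors, DESeq2, both other filters, fits of 2 groups, the replicate block, limma on log2 FPKM, voom with sample weights, each library left out, and Mx1 and Mx2 summed, the last added after seeing the data), though DESeq2 gave no adjusted p for some of them. For the 27 differences 485 of 513 alternative values kept their sign and 28 did not. In DN against SHAM all kept it. In DN-SM against DN, Mx1 (0.02) turned to -0.01 with the replicate block, -0.09 and -0.20 by limma with a pseudocount of 1 and 0.1, -0.09 without a filter, and ranged from -0.72 to 0.43 with 1 library left out; Irf1 reached 0.02, Mx2 0.06 and Ifit3 0.02 (ranges -0.25 to 0.02, -0.43 to 0.06 and -0.64 to 0.02). In DN-SM against SHAM, Irf7 (0.01) was at -0.01 with RLE factors and by DESeq2, -0.05 with the replicate block, and -0.07, -0.08 and -0.07 by limma (pseudocount 1, 0.1, and no filter); leaving out 1 library gave -0.59 to 0.28. Usp18 ranged from -0.00 to 0.53, Ifit2 from -0.22 to 0.14 and Ifit3 from -0.29 to 0.46, and voom gave 0.02 for Ifit2 and -0.19 for Ifit3. The causes were not tested.

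Counts over all genes moved more. DN against SHAM called 432 (60.2% higher), 758 by DESeq2 (45.8% higher), 156 in the fit of 2 groups, 275 and 243 by limma (73.5% and 72.4% higher), 112 by limma without a filter (73.2% higher), and 58 (without DN replicate 3) to 1183 (without SHAM replicate 3). DN-SM against DN called 1, but 215 by DESeq2, 716 in the fit of 2 groups, 515 by voom, 0 by limma with a pseudocount of 0.1, and 0 to 416 (without SHAM replicate 3) with 1 library left out. DN-SM against SHAM called 85, but 259 by DESeq2, 28 in the fit of 2 groups, 39 with the replicate block, 42, 43 and 12 by limma, and 15 (without DN-SM replicate 1) to 137 (without SHAM replicate 2). For the wider pathway, DN against SHAM gave 3, but 7 by DESeq2, 1 by limma without a filter and 0 to 7 with 1 library left out; with the replicate block Ifi30 was not called (0.0559); DN-SM against DN gave 1 by DESeq2 and 2 by voom, and DN-SM against SHAM 1 by DESeq2 and 0 to 1 with 1 library left out.

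Replicate numbers recur in each group, but same-numbered libraries did not deviate together (correlations -0.0483 to 0.109; 3 of 9 libraries correlated best with their own number), so they were not taken as pairs. With the replicate block 317 genes were called in DN against SHAM, 1 in DN-SM against DN and 39 in DN-SM against SHAM. With 3 libraries per group and 9 to 450 counts per gene, differences near 2-fold in the 9 genes could be missed. In DN against SHAM, Irf7 (2.03-fold) and Isg15 (1.99-fold) were not called by edgeR. The count of 0 of 9 therefore does not exclude differences of that size.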
